A study of Homo sapiens with 4 samples.

Results

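The collagen chain genes were the 43 protein-coding genes, of 58735 genes in the deposited count table, whose symbol has the form of a numbered collagen chain (COL, a type number, A and a chain number), with COL17A1 left out. They were measured by RNA sequencing in MDA-MB-231 and SUM159, which are established human lines of triple-negative breast cancer, a cancer without estrogen receptor, progesterone receptor or HER2 amplification. Each line was cultured for 72 h with 1 µM mebendazole (MBZ), a benzimidazole drug against worms that binds tubulin, or with the DMSO vehicle and no MBZ. There was 1 library per line and treatment, 4 libraries in all, so MBZ was compared with DMSO within each line without a replicate of either condition.

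Collagens are triple helices of alpha chains that are built in the endoplasmic reticulum and secreted into the matrix. Fibrillar collagens (types I, II, III, V, XI, XXIV and XXVII) form the tension-bearing fibrils, and FACITs (types IX, XII, XIV and others) sit on the surface of those fibrils. Type IV forms the network of basement membranes, type VI forms beaded filaments that link cells to the matrix, and the multiplexins XV and XVIII sit at the border of basement membranes. Type VIII belongs to the short-chain network collagens, type VII forms the anchoring fibrils that tie a basement membrane to the tissue beneath it, and type XIII spans the cell membrane. Some types can combine different chains: type I can pair alpha 1 with alpha 2 chains, and type IV chains are encoded in pairs that lie head to head on 1 chromosome. Tumor cells, and more so the fibroblasts of a tumor, deposit collagens that stiffen the tissue and give cells a track for invasion.

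The libraries held between 17143139 and 24897586 counts in genes, and the limit that a count of 0 allows, 3 counts, stood between 0.132 and 0.178 CPM (counts scaled to a common library size by TMM). PGR, the progesterone receptor gene, was at 0 in all 4 libraries, and ESR1, the estrogen receptor gene, had 0 to 18 counts, while ERBB2, the HER2 gene, was read in every library at 57.9 to 108 CPM. VIM, the mesenchymal intermediate filament gene, lay between 1101 and 3228 CPM. Of the epithelial genes, CDH1, the cadherin gene, had at most 12 counts in any library, whereas the keratin genes KRT8 and KRT18 had 9430 to 27089 and 4197 to 10874 counts. A log2 fold change below is the log2 ratio of CPM in MBZ to CPM in DMSO after TMM scaling of the line's 2 libraries, given with a 95% interval that covers counting error only. A gene was compared in a line when its 2 libraries had a mean of at least 10 counts, and called higher or lower when MBZ and DMSO differed by at least 1.5-fold.

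Collagen transcripts were far more abundant in SUM159 than in MDA-MB-231 and took a smaller share of the library after MBZ in both lines. In SUM159 the 43 genes together held 142526 reads with DMSO, 0.762% of the library (95% exact binomial interval 0.758 to 0.766%). With MBZ they held 64593 reads, or 0.342% (0.339 to 0.344%). The scaled sum was 2.75-fold lower with MBZ in SUM159, a log2 fold change of -1.46 (-1.47 to -1.44). In MDA-MB-231 the sum went from 36260 reads, 0.146% of the library (0.144 to 0.147%), to 19736 reads, 0.115% (0.114 to 0.117%). This was a log2 fold change of -0.61 (-0.63 to -0.58), or 1.52-fold lower. In bulk RNA, fewer cells of a type and less RNA per cell cannot be told apart.

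At the minimum of 10 mean counts, the single chains moved mostly one way in SUM159 and both ways in MDA-MB-231. Of the 43 chains, 29 were compared in SUM159, where 21 were lower with MBZ (72.4% of them) and 4 were higher (13.8%). Some of the 29 reached the minimum only through the library with more reads, such as COL20A1 (0 and 22 counts, called higher) and COL14A1 (31 and 4 counts, called lower). Among all 15674 genes compared in SUM159, 21.7% were lower and 21.5% higher. The median log2 fold change was -1.05 over the chains and -0.03 over all genes compared. In MDA-MB-231, 23 chains were compared, of which 7 were lower (30.4%) and 8 higher (34.8%), beside 15.8% lower and 18.3% higher among all 15142 genes compared. The median there was -0.25 over the chains and -0.02 over all genes. Scaling to total counts alone moved the median of all genes to 0.25 in MDA-MB-231 and to 0.27 in SUM159, and with it the median of the chains to 0.013 and -0.75.

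A few chains supplied most of the reads, and not the same ones in the 2 lines. In MDA-MB-231 with DMSO, COL13A1 alone held 25.6% of all collagen chain reads (25.2 to 26.1%), and 5 chains (COL13A1, COL18A1, COL5A1, COL6A1 and COL4A2) held 78.9%. In SUM159 with DMSO, COL6A3 held 25.3% (25.1 to 25.6%), and 5 chains (COL6A3, COL5A1, COL6A1, COL6A2 and COL12A1) held 74.8%. After MBZ the share of COL13A1 in MDA-MB-231 was 18.5% (17.9 to 19.0%), still the largest of that library. In SUM159 with MBZ the share of COL6A3 was 33.6% (33.2 to 33.9%), while COL12A1 went from 7.18% (7.05 to 7.32%) to 1.08%.

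**Figure D1:**
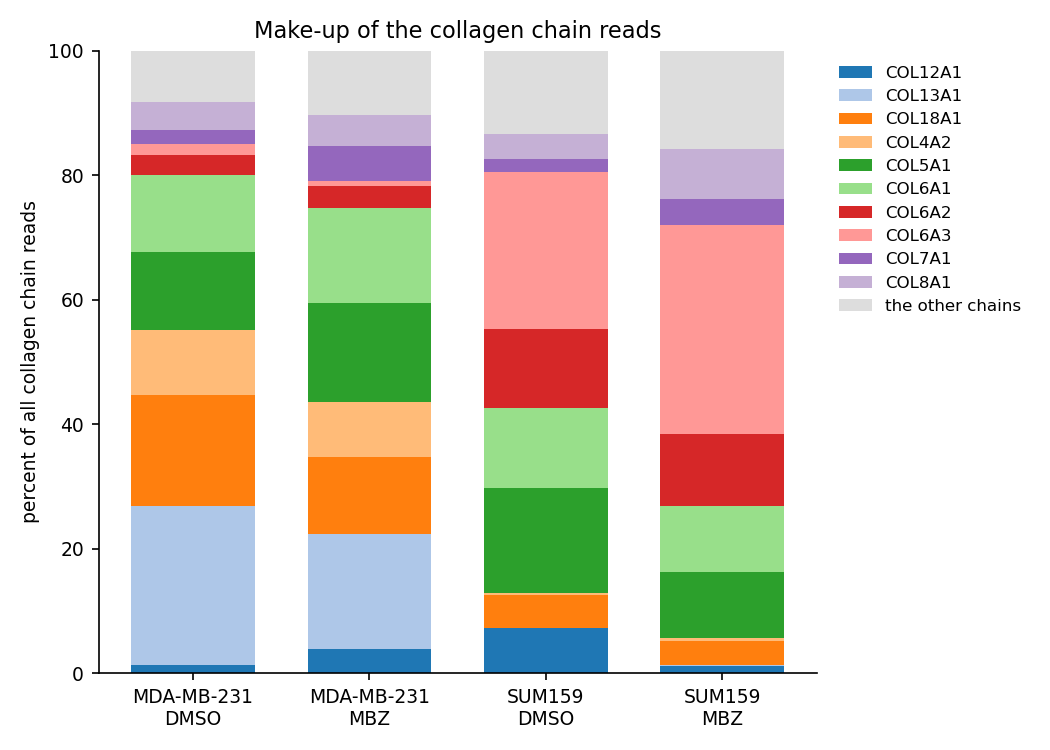
Share of each chain in all collagen chain reads, in percent, for the 4 libraries; each bar is 1 library and sums to 100%, and the 10 chains that rank highest are coloured. COL13A1 filled 25.6% of the MDA-MB-231 DMSO bar and is barely visible in SUM159, where the type VI chains COL6A1, COL6A2 and COL6A3 filled most of both bars.

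The type VI chains made up more than any other class in SUM159, with 50.8% of the collagen reads with DMSO and 55.9% with MBZ, and 17.4% and 19.7% in MDA-MB-231. COL6A3, the large chain that is added to a core of the alpha 1 and alpha 2 chains, had 36107 counts in SUM159 with DMSO and 21682 with MBZ, and 600 and 170 counts in MDA-MB-231. Its log2 fold change was -1.05 in SUM159 (-1.08 to -1.03) and -1.55 in MDA-MB-231 (-1.80 to -1.30), so it was lower in both lines. Per length, COL6A3 stood at 207 and 99.8 CPM per kb in SUM159 and at 2.45 and 0.849 CPM per kb in MDA-MB-231. COL6A1 had 18329 and 6909 counts in SUM159 and 4525 and 3010 counts in MDA-MB-231. It was lower in SUM159 by 3.30-fold (log2 fold change -1.72, -1.76 to -1.68) and within 1.5-fold in MDA-MB-231 (-0.32, -0.38 to -0.25). COL6A2 had 17935 and 7477 counts in SUM159, a log2 fold change of -1.58 (-1.62 to -1.54), against 1172 and 704 counts and -0.46 (-0.60 to -0.33) in MDA-MB-231. The 3 core chains thus lay below their DMSO level in every comparison, with COL6A3 the one that changed most in MDA-MB-231 and least in SUM159. COL6A5 and COL6A6, chains that can take the place of COL6A3, had at most 10 counts in any library.

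The fibrillar class held 11 genes, of which 5 were lower and 1 higher among the 7 compared in SUM159, and 1 was lower and 3 higher among the 6 compared in MDA-MB-231. The shares of all genes, against which the counts of this and the other classes stand, were 21.7% lower and 21.5% higher in SUM159 and 15.8% lower and 18.3% higher in MDA-MB-231. COL5A1, the main chain of type V collagen that starts and limits fibrils, ranked next to COL6A3 by counts in SUM159 with DMSO, with 24047 counts, and behind the 3 type VI chains with MBZ, with 6852. It was 4.37-fold lower there, a log2 fold change of -2.13 (-2.17 to -2.09). In MDA-MB-231 it had 4527 and 3145 counts, a log2 fold change of -0.25 (-0.32 to -0.19) that became 0.013 under scaling to total counts, the only chain compared whose sign depended on the scaling. Its partner COL5A2 had 1595 and 1033 counts in SUM159 (-0.94, -1.06 to -0.83), and only 21 and 29 counts in MDA-MB-231, where 0.73 had an interval of -0.12 to 1.62.

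COL1A1, the major chain of type I collagen, went from 1343 to 586 counts with MBZ in SUM159, a log2 fold change of -1.51 (-1.66 to -1.37). In MDA-MB-231 it had 247 and 112 counts, a log2 fold change of -0.87 (-1.20 to -0.54), so it was lower in both lines. COL1A2, which supplies the other chain of type I, was nearly silent, with 13 and 30 counts in MDA-MB-231 (1.47, 0.50 to 2.54) and 5 in each SUM159 library. COL3A1, the chain of type III, was a SUM159 gene, with 303 counts with DMSO and 33 with MBZ, or 11.4-fold lower (-3.51, -4.08 to -2.99). MDA-MB-231 had 1 and 0 counts of it. COL27A1 had 736 and 454 counts in SUM159 (-1.01, -1.19 to -0.84) and 325 and 287 counts in MDA-MB-231 (0.09, -0.14 to 0.33). The type XI chain gene COL11A2 had 84 and 74 counts in SUM159, within 1.5-fold (-0.50, -0.97 to -0.03), and 11 and 17 counts in MDA-MB-231 (0.89, -0.28 to 2.14). COL5A3 was the fibrillar chain called higher in SUM159, with 22 and 51 counts (0.89, 0.15 to 1.69), and had 0 and 1 counts in MDA-MB-231.

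**Figure D2:**
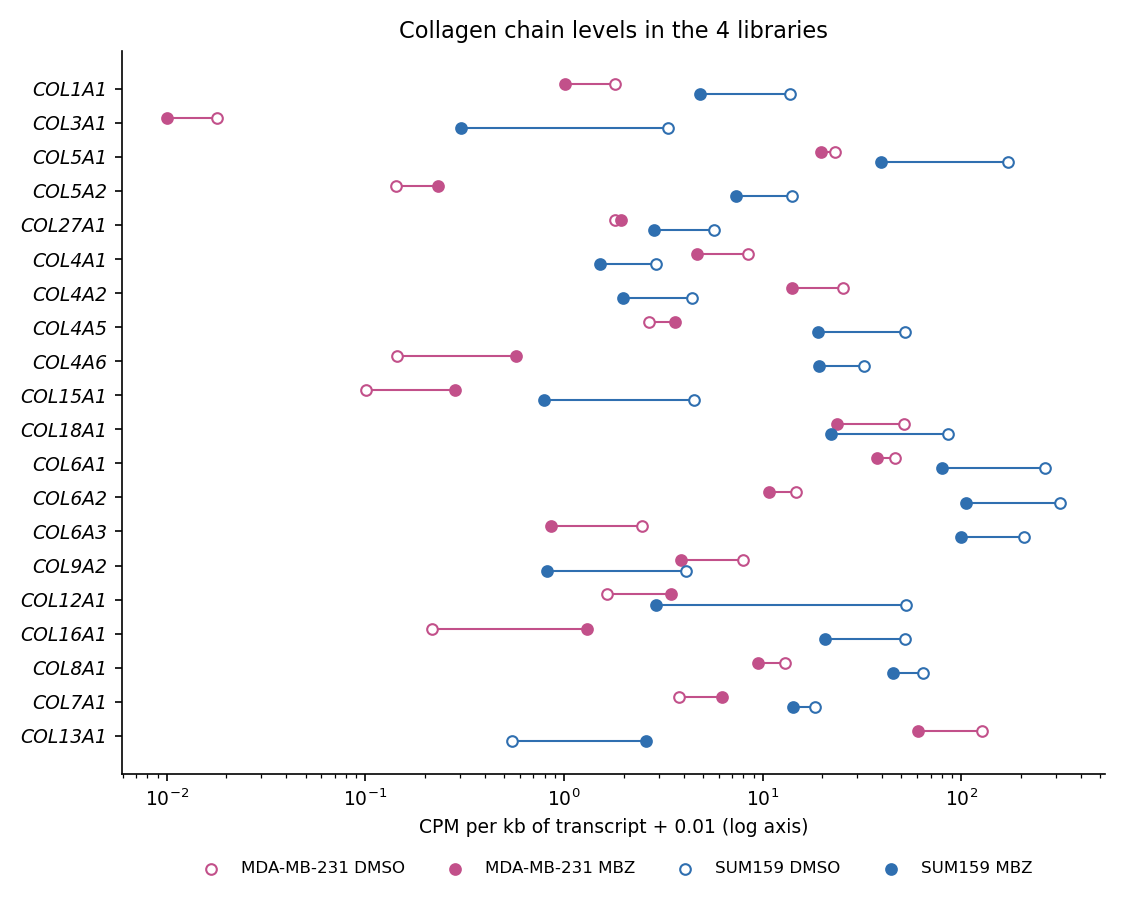
Levels of 20 collagen chains in the 4 libraries, in CPM per kb of the canonical transcript plus 0.01 on a log axis, with open points for DMSO, filled points for MBZ and a line joining the 2 libraries of a cell line. In SUM159 the filled point lies left of the open point for all chains drawn but COL13A1, while in MDA-MB-231 chains such as COL16A1, COL4A6 and COL12A1 lie to the right.

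The type IV genes lie in 3 head-to-head pairs, and all 6 chains were lower with MBZ in SUM159, while 2 were lower and 1 higher among the 5 compared in MDA-MB-231. All genes compared were lower in 21.7% in SUM159, and in MDA-MB-231 lower in 15.8% and higher in 18.3%, near the 1 of 5. Under scaling to total counts, COL4A3 (-0.54) and COL4A6 (-0.45) were within 1.5-fold in SUM159, and COL4A5 (0.68) was called higher in MDA-MB-231. COL4A1 and COL4A2, whose products form the common basement membrane heterotrimer, are on chromosome 13, with 127 bases between their RefSeq starts. In MDA-MB-231 COL4A2 went from 3806 to 1725 counts with MBZ, a log2 fold change of -0.87 (-0.95 to -0.79), and COL4A1 had 1286 and 579 counts, -0.88 (-1.02 to -0.74). In SUM159 COL4A2 had 472 and 263 counts (-1.16, -1.38 to -0.94), and COL4A1 had 315 and 204 counts (-0.94, -1.20 to -0.68). Both chains were thus lower in both lines, and per length both were higher in MDA-MB-231 than in SUM159 in either treatment (COL4A2 at 25.4 and 14.1 against 4.42 and 1.98 CPM per kb). COL4A5 and COL4A6, the pair on chromosome X, stood the other way round, at 52.2 and 32.3 CPM per kb in SUM159 with DMSO and at 2.67 and 0.135 CPM per kb in MDA-MB-231. COL4A5 had 5646 and 2545 counts in SUM159 (-1.47, -1.53 to -1.40) and 405 and 448 counts in MDA-MB-231, within 1.5-fold (0.42, 0.22 to 0.62). COL4A6 had 3574 and 2637 counts in SUM159 (-0.75, -0.83 to -0.68), but 21 and 72 counts in MDA-MB-231, or 4.12-fold higher (2.04, 1.33 to 2.83). COL4A4, on chromosome 2, had 61 and 24 counts in SUM159 (-1.66, -2.41 to -0.96) and 27 and 26 counts in MDA-MB-231 (0.22, -0.62 to 1.05). Its head-to-head neighbor COL4A3, with 13 and 9 counts in SUM159, was called lower with an interval that held 0 (-0.84, -2.25 to 0.49), and 838 bases of its exons lie opposite those of the lncRNA gene MFF-DT.

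The stretch between the starts of COL4A1 and COL4A2 is shown first, since these chains moved together, and the 250 bases upstream of the RefSeq start of COL4A5 second, since this pair did not. Both are from RefSeq on GRCh38.p14, 5′ to 3′ on the plus strand, at chr13:110307158-110307283 and chrX:108439588-108439837. GENCODE places the start of COL4A2 at 110305812, so by that annotation the first stretch lies inside COL4A2. Capitals mark matches to CCAAT, the CCAAT box, or GGGCGG, the GC box, read on either strand.
COL4A1 to COL4A2: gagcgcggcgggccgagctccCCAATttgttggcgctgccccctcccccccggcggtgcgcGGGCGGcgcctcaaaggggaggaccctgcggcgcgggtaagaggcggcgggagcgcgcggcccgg
COL4A5: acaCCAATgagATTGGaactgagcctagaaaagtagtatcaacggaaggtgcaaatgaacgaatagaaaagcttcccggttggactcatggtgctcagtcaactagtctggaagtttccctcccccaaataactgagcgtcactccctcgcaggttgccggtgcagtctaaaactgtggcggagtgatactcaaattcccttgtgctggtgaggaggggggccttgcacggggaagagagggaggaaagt
The stretch shared by COL4A1 and COL4A2 was 80.2% G or C and held 1 match to each motif. The COL4A5 sequence was 51.2% G or C and held 2 matches to CCAAT, 1 on each strand, and none to GGGCGG. It covers only the COL4A5 side of that pair, since the RefSeq starts of COL4A6 lie 380 and 1416 bases from that of COL4A5. Among the windows upstream of COL4A6, not shown, at least 1 matched GGGCGG and at least 1 matched CCAAT.

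The multiplexins were led by COL18A1, whose C-terminal fragment is endostatin. In SUM159 it went from 7676 to 2471 counts with MBZ, or 3.87-fold lower (-1.95, -2.02 to -1.89), and 6437 and 2447 counts in MDA-MB-231, or 2.18-fold lower (-1.12, -1.19 to -1.06). Per length it was among the few chains at a like level in both lines, with 51.2 and 23.8 CPM per kb in MDA-MB-231 and 85.7 and 22.2 in SUM159. Exons of COL18A1 share 1563 bases with exons of SLC19A1, a folate carrier gene on the opposite strand. SLC19A1 itself had 18 and 3 counts in MDA-MB-231 and 816 and 1057 counts in SUM159. COL15A1, the other multiplexin, was lower in SUM159, with 389 and 84 counts (-2.53, -2.89 to -2.18), and higher in MDA-MB-231, with 11 and 27 counts (1.56, 0.51 to 2.73).

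Among the FACITs, 5 were lower and 1 higher of the 6 compared in SUM159, and 1 was lower and 2 higher of the 4 compared in MDA-MB-231. With all genes at 21.7% lower and 21.5% higher in SUM159 and 15.8% lower and 18.3% higher in MDA-MB-231, the 1 of 6 higher in SUM159 and the 1 of 4 lower in MDA-MB-231 lie near the share of all genes. The 1 higher in SUM159 was COL20A1, with 0 and 22 counts, which reached the minimum only through its reads with MBZ. COL14A1, among the 5 lower with 31 and 4 counts, reached it only through its reads with DMSO. COL12A1, the chain of type XII that bridges fibrils under tension, had 10234 counts in SUM159 with DMSO and 700 with MBZ. It was 18.2-fold lower, a log2 fold change of -4.19 (-4.30 to -4.08), which was the most negative of all chains compared. In MDA-MB-231 it had 447 and 769 counts and was 2.08-fold higher (1.05, 0.89 to 1.23). Per length the lines stood far apart with DMSO, at 52.7 CPM per kb in SUM159 and 1.64 in MDA-MB-231, and at 2.89 and 3.45 CPM per kb with MBZ. COL16A1, a FACIT that binds integrins, followed the same pattern, with 4655 and 2313 counts in SUM159 (-1.33, -1.40 to -1.25) and 26 and 133 counts in MDA-MB-231, or 6.15-fold higher (2.62, 2.01 to 3.29). COL9A2, a chain of the cartilage FACIT type IX, was lower in both lines, with 194 and 48 counts in SUM159 (-2.33, -2.82 to -1.87) and 529 and 209 counts in MDA-MB-231 (-1.07, -1.31 to -0.83). Its partner COL9A3 had 20 and 14 counts in SUM159, called lower with an interval that held 0 (-0.82, -1.93 to 0.23) and within 1.5-fold under total counts (-0.53), and 26 and 16 counts in MDA-MB-231 (-0.43, -1.42 to 0.52). COL9A3 shares 155 exonic bases with TCFL5 on the opposite strand, a gene with 765 to 1533 counts per library.

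COL14A1 had 31 counts in SUM159 with DMSO and 4 with MBZ (-3.23, -5.23 to -1.77), and 0 and 2 in MDA-MB-231. COL20A1, a FACIT found mainly in cornea and other surface tissue, had 0 counts in both DMSO libraries, 15 in MDA-MB-231 with MBZ and 22 in SUM159 with MBZ. Set against the limit of 3 counts per library that a count of 0 allows, it was at least 5.89-fold higher in SUM159 and at least 6.04-fold higher in MDA-MB-231, where its mean of 7.5 counts was under the minimum. More genes of any kind had a count after MBZ, 24416 against 22278 in MDA-MB-231 and 27239 against 23015 in SUM159, and the part of this in the reads of COL20A1 was not tested.

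COL13A1, a collagen that crosses the plasma membrane and is found at cell adhesions and the neuromuscular junction, was the leading collagen of MDA-MB-231 and scarce in SUM159. MDA-MB-231 had 9300 counts with DMSO and 3643 with MBZ, or 2.11-fold lower (-1.08, -1.14 to -1.02). SUM159 had 28 and 167 counts, or 4.78-fold higher (2.26, 1.68 to 2.89). Even so it remained at 2.57 CPM per kb in SUM159 with MBZ, against 60.9 CPM per kb in MDA-MB-231 with MBZ. The other transmembrane chains, COL23A1 and COL25A1, had at most 9 counts in any library. COL8A1, a chain of the short-chain type VIII of vessel and corneal membranes, was within 1.5-fold in both lines, with 5844 and 5149 counts in SUM159 (-0.50, -0.55 to -0.44) and 1664 and 993 counts in MDA-MB-231 (-0.47, -0.59 to -0.36). COL8A2 had 8 and 21 counts in SUM159, called higher with an interval that held 0 (1.07, -0.16 to 2.46), and 4 and 12 in MDA-MB-231. COL7A1, the chain of the anchoring fibril, had 816 and 1097 counts in MDA-MB-231, called higher (0.70, 0.57 to 0.83), and 2810 and 2705 counts in SUM159, within 1.5-fold (-0.37, -0.45 to -0.29). COL28A1 had 9 and 16 counts in SUM159 (0.51, -0.75 to 1.87).

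The sequences upstream of COL12A1 and COL13A1 are given because these genes changed in opposite directions in the 2 lines. They are the 250 bases before the RefSeq start on GRCh38.p14, each 5′ to 3′ on the strand of the gene, at chr6:75206054-75206303 (minus strand) and chr10:69801656-69801905 (plus strand). GENCODE places the gene starts within these windows, at 75206267 for COL12A1 and 69801880 for COL13A1. By that annotation part of each sequence lies inside the gene. Capitals mark matches, on either strand, to GGGCGG, to GGAATG, the core read by TEAD factors, and to TATAAA, the TATA box.
COL12A1: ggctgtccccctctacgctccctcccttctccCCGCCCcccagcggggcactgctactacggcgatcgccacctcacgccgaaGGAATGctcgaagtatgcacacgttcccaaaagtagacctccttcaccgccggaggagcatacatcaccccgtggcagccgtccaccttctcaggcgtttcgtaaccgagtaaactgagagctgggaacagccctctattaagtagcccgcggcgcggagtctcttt
COL13A1: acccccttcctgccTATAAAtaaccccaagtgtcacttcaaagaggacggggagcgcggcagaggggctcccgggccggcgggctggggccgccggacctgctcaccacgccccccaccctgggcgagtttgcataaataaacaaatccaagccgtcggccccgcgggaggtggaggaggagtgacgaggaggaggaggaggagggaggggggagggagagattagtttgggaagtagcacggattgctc
COL12A1 held 1 match to GGGCGG and 1 to GGAATG, and COL13A1 held 1 match to TATAAA. None of the matches marked in the 4 sequences overlapped another. RefSeq windows were at hand for 31 of the 43 chains, with 43 windows in all, since some genes have several starts. In the 250 upstream bases, searched on both strands, GGGCGG was in 55.8% of the collagen windows and in 42.6% of all 35116 windows. CCAAT was in 25.6% against 32.0%, TATAAA in 16.3% against 10.7%, GGAATG in 6.98% against 11.9%, and TGANTCA, the AP-1 element, in 2.33% against 6.57%. The median G and C content of the windows was 64.4% for the collagen chains and 58% for all.

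Across the 22 chains compared in both lines, 6 were lower in both, COL1A1, COL4A1, COL4A2, COL6A3, COL9A2 and COL18A1, where 4.71% of the 13733 genes compared in both lines were lower in both. None was higher in both, against 6.12% of all genes. There were 7 chains lower in SUM159 and within 1.5-fold in MDA-MB-231, among them COL5A1, COL6A1, COL6A2 and COL4A5, a pattern of 12.7% of all genes. Another 5 were lower in SUM159 and higher in MDA-MB-231, COL12A1, COL15A1, COL16A1, COL4A6 and COL5A2, a pattern of 2.92% of all genes. COL13A1 was the 1 chain lower in MDA-MB-231 and higher in SUM159 (3.12% of all genes). COL7A1 and COL11A2 were higher in MDA-MB-231 and within 1.5-fold in SUM159 (7.78% of all genes), and COL8A1 was within 1.5-fold in both (45.5% of all genes). The calls of COL5A2 and COL11A2 in MDA-MB-231 and of COL9A3 in SUM159 had counting intervals that included no change. Apart from COL12A1, the chains higher in MDA-MB-231 and lower in SUM159 had at most 133 counts in any MDA-MB-231 library and at least 389 counts in SUM159 with DMSO.

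**Figure D3:**
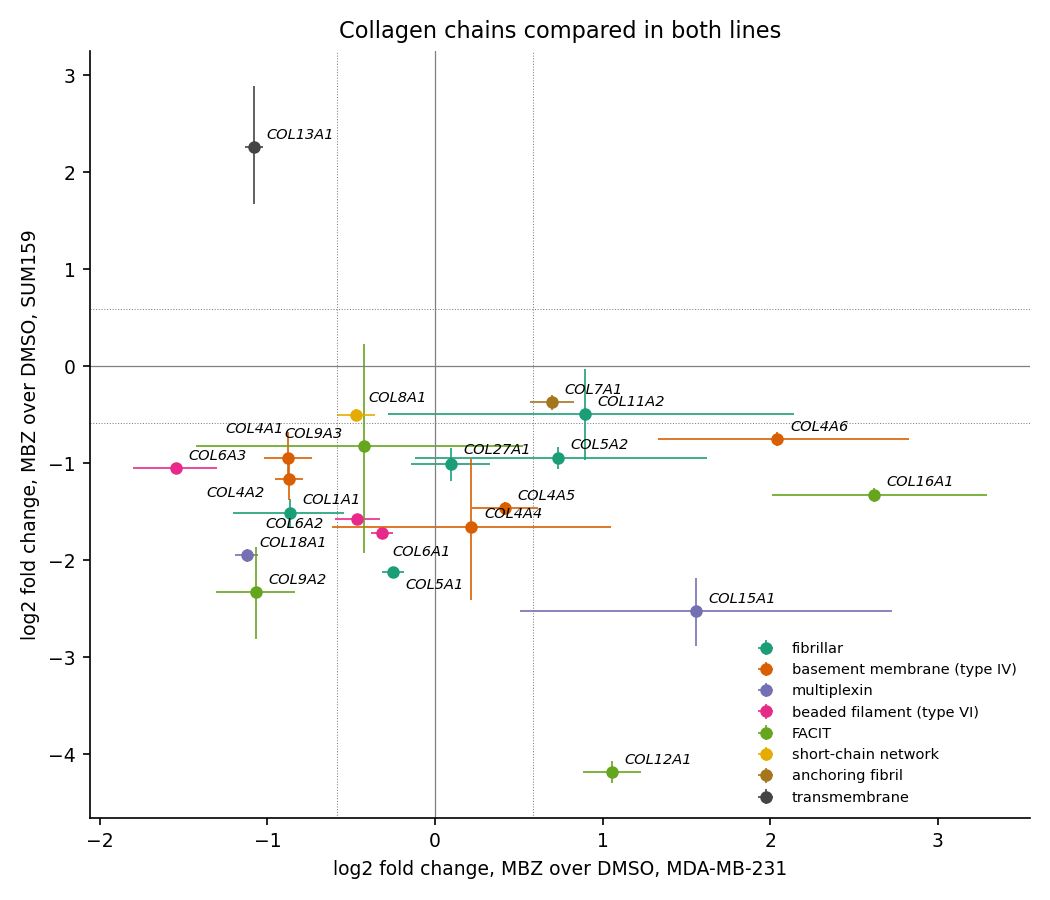
Log2 fold change, MBZ over DMSO, of the 22 chains compared in both lines, MDA-MB-231 on the horizontal and SUM159 on the vertical axis, coloured by class, with 95% counting intervals as bars and dotted lines at 1.5-fold. COL12A1 lies lowest, at 1.05 and -4.19, COL13A1 is the 1 chain above 0 in SUM159, and 6 chains lie beyond both dotted lines at the lower left.

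A change shared by both lines was tested with edgeR's quasi-likelihood test over all 4 libraries with the line as a covariate, in which the spread is the difference between the lines' responses. Of 26 chains among the 16100 genes tested, 0 were higher and 0 lower at a Benjamini-Hochberg adjusted p under 0.05, where 0.00621% of all genes tested (1 gene) were higher and 0% lower. At an unadjusted p under 0.05, 8 chains were lower and 1, COL20A1, was higher, beside 3.24% of all genes lower and 3.91% higher. COL20A1, at 0 counts in both DMSO libraries, entered the test only through its reads with MBZ, and COL3A1, among the 8, had 1 and 0 counts in MDA-MB-231, so that its value rests on SUM159. COL18A1 had a shared log2 fold change of -1.50 (SE 0.35), with an adjusted p of 0.471 in edgeR's quasi-likelihood test. For COL1A1 the shared value was -1.16 (SE 0.32), for COL4A2 -0.97 (SE 0.28) and for COL9A2 -1.63 (SE 0.48), each with an adjusted p of 0.591 in the same edgeR test. DESeq2's Wald test on the same model called 2 chains lower, COL18A1 with an adjusted p of 0.0182 and COL6A3 with 0.0455, and called none higher, of the 24 chains with an adjusted p. Among all 14763 genes with an adjusted p in DESeq2, 0.373% were called lower and 0.305% higher.

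The ratio of 2 chains within a library does not depend on how libraries are scaled, and it separated the pairs that moved together from those that did not. In MDA-MB-231 COL4A1 to COL4A2 was 0.338 in the DMSO library and 0.336 in the MBZ library, a change of 0.993 times (95% exact conditional interval 0.885 to 1.11), and in SUM159 it changed 1.16 times (0.915 to 1.48). COL6A1 to COL6A2, neighbors on chromosome 21, changed 1.11 times in MDA-MB-231 (0.997 to 1.23) and 0.904 times in SUM159 (0.870 to 0.940). These were the steadiest pairs, although the type VI interval in SUM159 left out 1. COL6A1 to COL6A3 went from 7.54 to 17.7 in MDA-MB-231, 2.35 times (1.96 to 2.82), and from 0.508 to 0.319 in SUM159, 0.628 times (0.608 to 0.648). The intervals of the 2 lines lay on opposite sides of 1 for this pair.

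In both lines COL4A5 lost ground to COL4A6, and COL5A1 lost ground to COL5A2. The ratio of COL4A5 to COL4A6 went from 19.3 to 6.22 in MDA-MB-231, a change of 0.323 times (0.185 to 0.543), and in SUM159 it was 1.58 and 0.965, a change of 0.611 times (0.570 to 0.655). COL5A1 to COL5A2 changed 0.503 times in MDA-MB-231 (0.272 to 0.915) and 0.440 times in SUM159 (0.405 to 0.478). COL1A1 to COL1A2 went from 19.0 to 3.73 in MDA-MB-231, a change of 0.197 times (0.0908 to 0.407), on the few reads of COL1A2. COL9A2 to COL9A3 changed 0.355 times in SUM159 (0.157 to 0.818) and 0.642 times in MDA-MB-231 (0.324 to 1.31). COL8A1 to COL8A2 changed 0.336 times in SUM159 (0.128 to 0.790), and COL4A3 to COL4A4 changed 1.75 times (0.579 to 5.12), the latter not told apart from no change at this depth. COL3A1 and COL5A2 lie tail to tail on chromosome 2 with 19151 bases between them, and their ratio changed 0.168 times in SUM159 (0.113 to 0.244).

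**Figure D4:**
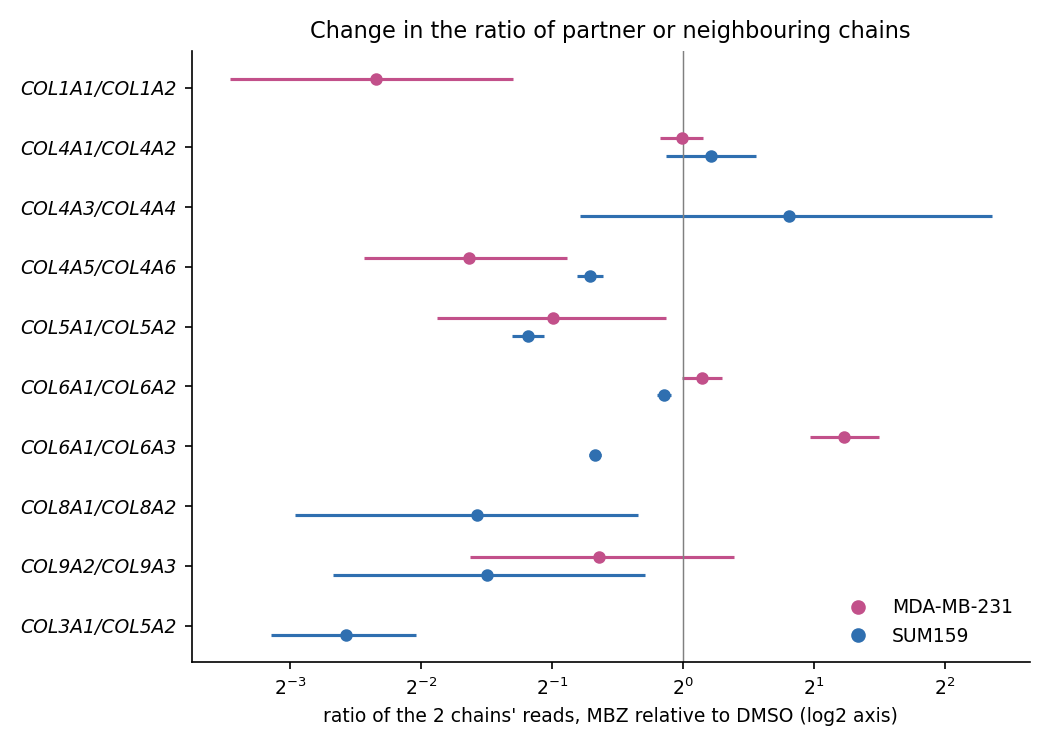
Change in the ratio of 2 chains' reads, MBZ relative to DMSO, on a log2 axis, for partner or neighboring chains in each line; points are the ratio and bars the 95% exact conditional interval, and a pair is drawn where both chains were compared. COL4A1/COL4A2 sits on the line of no change in MDA-MB-231, at 0.993, while COL6A1/COL6A3 lies to the right in MDA-MB-231, at 2.35, and to the left in SUM159, at 0.628.

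The remaining chains were barely detected. There were 13 chains under the minimum in both lines, with at most 10 counts in any library, and 5 of these had 3 counts or fewer in all 4. COL19A1 and COL22A1 were at 0 in all 4 libraries, which allows up to 3 counts in each. Among the other 11 were COL2A1, COL10A1 and COL11A1, chains typical of cartilage.

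The counts in the lists of companion genes that follow stand beside the shares of all genes compared, 15.8% lower and 18.3% higher in MDA-MB-231 and 21.7% lower and 21.5% higher in SUM159. Of the enzymes that modify and fold collagen chains in the endoplasmic reticulum, more were lower than higher in each line. Of 17 compared in MDA-MB-231, 7 were lower and 2 higher (median -0.33), and of 18 in SUM159, 6 were lower and 0 higher (median -0.37). CRTAP, a subunit of the prolyl 3-hydroxylase complex, had 7892 and 4182 counts in MDA-MB-231 (-0.64, -0.70 to -0.59) and 13580 and 6447 counts in SUM159 (-1.39, -1.43 to -1.35). P3H3 was lower in both lines too (-1.95 in MDA-MB-231 and -0.69 in SUM159). Of the genes for export and trimming of procollagen, 4 were higher and 1 lower of 13 in MDA-MB-231 (median 0.14), and 1 was higher and 8 lower of 14 in SUM159 (median -0.79). BMP1, the protease that cuts off the C-terminal propeptide, was lower in both (-0.72, -0.85 to -0.58 in MDA-MB-231, and -1.06, -1.16 to -0.96 in SUM159). SEC24D, a coat subunit of the vesicles that carry procollagen, was higher in MDA-MB-231 (0.87, 0.79 to 0.96), and in SUM159 its 0.55 (0.45 to 0.65) stayed within 1.5-fold. SEC23A, another subunit of that coat, stayed within 1.5-fold in both lines (0.21 and 0.36).

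Collagen receptors were lower in 4 of 9 genes and higher in 1 in MDA-MB-231 (median -0.32), beside 15.8% lower and 18.3% higher of all genes. In SUM159 they were lower in 4 of 10 and higher in 1 (median -0.20), beside 21.7% lower and 21.5% higher of all genes. DDR1, the receptor tyrosine kinase that collagen activates, had 2759 and 923 counts in MDA-MB-231 (-1.31, -1.42 to -1.20) and 4774 and 1824 counts in SUM159 (-1.70, -1.78 to -1.63). The integrin subunit gene ITGA10 was lower in both lines (-0.94 and -0.85), whereas ITGA2 was within 1.5-fold in both (0.20 and 0.40). Of the genes for breakdown and uptake of collagen, 2 were higher and 1 lower of 5 in MDA-MB-231 (median 0.56), and 2 were higher and 3 lower of 7 in SUM159 (median -0.49), where the share of higher genes lay near that of all genes. The collagenase genes MMP1 and MMP13 were the higher ones in both lines. MRC2, the endocytic collagen receptor, had 3025 and 822 counts in MDA-MB-231 (-1.61, -1.72 to -1.50) and 10755 and 2652 counts in SUM159 (-2.34, -2.40 to -2.27). MMP14, a membrane collagenase, was lower in SUM159 (-0.94, -0.98 to -0.90) and within 1.5-fold in MDA-MB-231 (-0.13, -0.17 to -0.10).

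Genes for matrix proteins that sit on fibrils were lower in 5 of 7 and higher in 1 in SUM159 (median -1.17), beside 21.7% lower and 21.5% higher of all genes. In MDA-MB-231 they were lower in 2 of 6 and higher in 1 (median 0.08), beside 15.8% lower and 18.3% higher of all genes. FN1, the fibronectin gene, had 98237 and 16694 counts in SUM159 (-2.87, -2.90 to -2.85) and 24016 and 9078 counts in MDA-MB-231 (-1.13, -1.17 to -1.10). TNC, the tenascin C gene, went the other way in SUM159, with 1535 and 5352 counts (1.49, 1.40 to 1.57), and was within 1.5-fold in MDA-MB-231 (0.38, 0.27 to 0.50). THBS1, the thrombospondin 1 gene, was lower in SUM159 (-1.30) and within 1.5-fold in MDA-MB-231 (-0.06). Of the laminins and other basement membrane partners of type IV collagen, 8 were lower and 0 higher of 12 in SUM159 (median -0.88), and 0 were lower and 1 higher of 9 in MDA-MB-231 (median 0.18). LAMB1 had 9753 and 3631 counts in SUM159 (-1.74, -1.80 to -1.69) and 5217 and 2982 counts in MDA-MB-231 (-0.53, -0.60 to -0.47). LAMC1 was lower in SUM159 (-1.33, -1.38 to -1.28) and within 1.5-fold in MDA-MB-231 (-0.15, -0.20 to -0.10).

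Of 4 markers of fibroblasts and pericytes, cells that make much collagen, PDGFRA and PDGFRB were lower with MBZ in SUM159 and DCN and LUM were not. Over the 4 markers the summed level was 213 CPM with DMSO and 52.6 CPM with MBZ in SUM159, and 6.25 and 4.26 CPM in MDA-MB-231, where PDGFRA and DCN were at 0. In SUM159 PDGFRA went from 60.9 to 14.6 CPM and PDGFRB from 133 to 13.4 CPM, while DCN stood at 19.9 and 24.2 CPM and LUM at 0 and 8 counts. Their part in the collagen result of SUM159 was not tested. The 3 leukocyte markers summed to 12.99 and 3.002 CPM in SUM159 and to 0.352 and 1.38 CPM in MDA-MB-231, with CD3E at 0 in all but 1 library. The 3 endothelial markers summed to 40.1 and 40.6 CPM in SUM159 and to 16.5 and 18.5 CPM in MDA-MB-231.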

How the data were processed

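RNA was prepared from MDA-MB-231 and SUM159 cells after 72 h with 1 µM MBZ or DMSO, enriched for mRNA and sequenced in paired-end runs. The authors deposited raw counts of reads per Ensembl gene for the 4 libraries. The submitters' processing notes name STAR 2.5, HTSeq 0.6.1 and edgeR 3.16.5 on GRCh38 (hg38). The paper gives the union mode for HTSeq. The annotation release and the strand setting were not given in the sources used here. How reads from exons shared by genes on opposite strands were counted is therefore not known.

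Gene symbols were found for 58207 of 58735 Ensembl identifiers, and transcript lengths and positions came from GENCODE release 44. Counts were scaled by TMM (edgeR 4.0.16, R 4.3.3) within each line, with a prior count of 0.125. CPM per kb used the canonical transcript and TMM over all 4 libraries. Intervals are 95% Clopper-Pearson, exact binomial or exact conditional intervals (scipy 1.17.1). They cover counting error only, since each condition had 1 library. PCR was part of the library preparation, so several reads can stem from 1 molecule, which the intervals do not cover. With 1 library per condition no p-value was given within a line. The shared test (edgeR's quasi-likelihood test, all genes that passed filterByExpr, Benjamini-Hochberg) used the lines in place of replicates, with a common biological coefficient of variation of 0.32, and DESeq2 1.42.0 was its alternative. Scripts were tested on simulated data.

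The members, classes and companion lists were chosen with earlier results of these data known. All members with a mean of at least 10 counts were given values, with up to 4 genes of each companion list, the 2 highest and 2 lowest by the smaller change of the lines where both lines averaged 100 counts or more. MMP1, MMP13, SLC19A1, TCFL5 and MFF-DT fall outside that rule and were named after their values were seen. Alternatives were other scalings (TMM over 4 libraries, DESeq2 size factors, total counts), prior counts, count minimums, fold thresholds and models. Protein sequences were not used here.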

Additional observations from a re-analysis of the deposited data

Results flagged for a closer look

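For 5 chains the libraries of the 2 lines moved in opposite directions beyond 1.5-fold with counting intervals that left out 0 in each line. The value given is the log2 fold change in SUM159 minus that in MDA-MB-231, and with 1 library per condition the difference was not tested. COL12A1 differed by -5.24 (-4.19 in SUM159 and 1.05 in MDA-MB-231), COL15A1 by -4.08 (-2.53 and 1.56), COL16A1 by -3.95 (-1.33 and 2.62) and COL4A6 by -2.8 (-0.75 and 2.04). Under scaling to total counts COL4A6 was within 1.5-fold in SUM159 (-0.45) and would not be among these chains. Under that scaling COL4A5 moved in opposite directions beyond 1.5-fold, at -1.16 in SUM159 and 0.68 in MDA-MB-231. COL13A1 differed by 3.34 (2.26 and -1.08).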

How the results depend on the processing

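With every gene of at least 1 count, MDA-MB-231 had 16 chains higher and 11 lower (median 0.16, all genes 34.4% and 21.5%), and SUM159 had 9 higher (40.3% of all genes). Where the mean had to reach 100 counts, 2 of 15 were higher in MDA-MB-231 (median -0.47, all genes 10.3%) and 0 of 19 in SUM159 (median -1.47, all genes 13.2%). At that minimum 7 were lower in MDA-MB-231 (all genes 15.4%) and 17 in SUM159 (all genes 20.9%). At a threshold of 2-fold, MDA-MB-231 had 5 higher and 4 lower (all genes 9.05% and 5.14%). Scaling to total counts moved the medians to 0.013 in MDA-MB-231 and -0.75 in SUM159. In the shared test, DESeq2 called 2 chains lower, and testing every gene with at least 1 count called 3 lower and 1 higher in edgeR's quasi-likelihood test (all genes 0.449% and 0.474%). The 1 higher was COL20A1, at 0 counts in both DMSO libraries, and the 3 lower were COL18A1, COL9A2 and COL3A1, the last with 1 and 0 counts in MDA-MB-231. The causes were not tested. Of 52 fold changes of single chains, 30 left their counting interval under total counts and 0 under TMM over 4 libraries, DESeq2 size factors or a prior count of 2. Under total counts COL4A3, COL4A6 and COL9A3 (-0.54, -0.45 and -0.53) were no longer lower in SUM159, and COL4A5 in MDA-MB-231 (0.68) and COL28A1 in SUM159 (0.81) became higher, but no call reversed. Chains lower in SUM159 ranged from 16 of 29 at 2-fold (10.7% of all genes) to 26 of 41 with every gene of at least 1 count (23.5% of all genes). Depth limited the chains under 10 counts, and the lack of replicates left the spread between cultures unknown.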

Other observations

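The chains under the minimum of 10 mean counts in both lines had these counts. COL2A1, the cartilage fibril chain, had 1 count in SUM159 with DMSO and 10 with MBZ, and 0 in both MDA-MB-231 libraries. COL21A1, a FACIT, had 2 and 7 counts in MDA-MB-231 and 1 and 9 in SUM159. COL6A6 had 10 and 5 counts, COL23A1 9 and 3, COL10A1 7 and 1, COL25A1 5 and 0 and COL11A1 4 and 0 in SUM159, and each had at most 2 counts in MDA-MB-231. COL9A1 had 5 counts in SUM159 with MBZ and 0 elsewhere. COL24A1, COL26A1 and COL6A5 had at most 3 counts in any library.

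In the GENCODE annotation, 11 of the 43 chains share exonic bases with a gene on the opposite strand. COL16A1 shares 117 bases with PEF1-AS1, which had 1 to 31 counts per library. COL5A3 shares 270 bases and COL15A1 137 bases with lncRNA genes that were at 0 in all 4 libraries.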
